A study of Mus musculus with 63 samples.

Results

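Mouse embryonic stem (ES) cells carrying a Yy1 construct (ES-oeYy1, 2 libraries) were set against mouse extended pluripotent stem (EPS) cells carrying a control short hairpin RNA (EPS-shCtrl, 2 libraries). These 4 undifferentiated RNA-seq libraries were picked by their titles from the 63 samples of the series, 22 of which have a table of read counts per gene. The comparison asks which features of EPS cells ES cells have, exceed or lack once Yy1 is raised. All groups are given as strain C57BL/6, ES cells as cultured in serum-free 2i medium and EPS cells in serum-free LCDM medium, on inactivated mouse fibroblast feeders or on Matrigel. Which libraries had feeders is not said, nor which vector or promoter drives the Yy1 construct, nor whether a line is a single clone. State, medium, cell line and construct all differ between ES-oeYy1 and EPS-shCtrl, so their shares of a difference cannot be told apart. ES cells with the control construct (ES-oeCtrl, 2 libraries), untransduced ES cells (3 libraries) and untransduced EPS cells (3 libraries) give the reference levels. The labels do not say that replicates are separate cultures, and p-values cover just the spread of these libraries, which may be technical.

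YY1 is a zinc finger transcription factor that binds promoters and enhancers at motifs built around CCAT and helps to bring such elements together. EPS cells are a cultured state described as able to reach both embryonic and extraembryonic lineages, whereas ES cells in 2i medium are held close to the naive epiblast. The 2i medium contains an inhibitor of MEK, the kinase that activates ERK, together with an inhibitor of GSK3. LCDM contains LIF and a GSK3 inhibitor but no MEK inhibitor.

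Each of the 4 libraries held between 14193750 and 17005566 counts on genes. Levels are given as CPM, counts scaled to library size with edgeR's TMM factors, and they compare libraries, not genes of different length. A value in brackets after a pair of levels is the log2 fold change of ES-oeYy1 over EPS-shCtrl, and a second one that over ES-oeCtrl. A gene was called when its Benjamini-Hochberg adjusted p from edgeR's quasi-likelihood test was under 0.05. The ES-oeYy1 replicates were alike (chi-square per gene 2.60), whereas the EPS-shCtrl replicates differed more (20.2), so genes that rest on 1 EPS-shCtrl library are pointed out. The summed level of 8 pluripotency markers lay between 3906 and 4582 CPM in the 4 libraries. The 8 defining markers of feeder fibroblasts summed to 10.6 to 10.7 CPM in ES-oeYy1 and 3.72 to 3.98 CPM in EPS-shCtrl, with Postn, Lum and Prrx1 under 1 CPM in both. The same sum was 2046 to 3615 CPM in untransduced ES cells and 251 to 719 CPM in untransduced EPS cells.

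Yy1 itself stood at 915 and 927 CPM in ES-oeYy1 and at 126 and 135 CPM in EPS-shCtrl. All 3 reference groups lay near the EPS-shCtrl level, with 117 and 123 CPM in ES-oeCtrl and means of 122 CPM in EPS and 121 CPM in ES cells. The difference was 2.82 ± 0.11 (log2 fold change ± SE, adjusted p = 8.8e-11), so the construct placed Yy1 about 7.06-fold above the EPS control rather than at its level. The counts do not separate construct from endogenous transcripts. Yy2, a close relative, had no counts in the 4 libraries, which allows up to 0.211 CPM in the shallowest (3 counts, counting error only).

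Of 16440 genes tested, 3228 were higher in ES-oeYy1 (19.6% of genes) and 3231 lower (19.7%), together 39.3% of genes. Without ES-oeYy1 replicate 1 the calls numbered 4179, of which 2006 were lower, and without replicate 2 they numbered 4142, of which 1965 were lower. At least 2-fold differences were called for 1464 genes higher (8.91%) and 1662 lower (10.1%). The 2 groups did not overlap in 72.1% of genes, so the absence of overlap between libraries says little about a single gene here. ES-oeCtrl against EPS-shCtrl, which uses the same EPS-shCtrl libraries, gave 6646 calls (40.4%), 20.7% of genes higher and 19.7% lower.

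EPS features were genes at least 2-fold higher and called in untransduced EPS against untransduced ES cells (EPS-high, 787 genes, 4.79% of genes tested). ES features were defined likewise (ES-high, 1124 genes, 6.84%). The contrast leaves out the 4 compared libraries, but the gene filter, scaling and spread behind it came from a fit that included them. In the alternative fits EPS-high genes numbered 651 to 838 and ES-high genes 895 to 1317, the 895 with only the untransduced libraries fitted. The EPS-high gene closest to the limit was Arhgef16 (log2 difference 1.0006), with Fggy just outside (0.9987), and among ES-high genes Ccdc68 lay just inside at -1.00003.

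EPS-high genes were more often lower than higher in ES-oeYy1: 397 of 787 (50.4%) were called lower than in EPS-shCtrl, against 19.7% of all genes. Another 47 (5.97%) were called higher, against 19.6% of all genes. A further 343 were not called, and for 71 of these (9.02% of EPS-high genes, 35.3% of all genes) the 95% interval also lay within 2-fold of the EPS-shCtrl level. Without ES-oeYy1 replicate 1 or 2 the EPS-high genes called higher numbered 27 and 28, and without replicate 2 those within 2-fold numbered 46. The median EPS-high gene differed by -1.10 on the log2 scale, beside -0.01 over all genes. In ES-oeCtrl the same genes had a median of -1.41 against EPS-shCtrl, with 477 called lower and 21 higher.

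ES-oeYy1 and ES-oeCtrl differ in construct but also in Y-linked genes, of which 3 of 4 were lower in ES-oeYy1. Their construct and line therefore cannot be told apart. The comparison of ES-oeYy1 against ES-oeCtrl called 32% of all genes, 14.8% higher and 17.1% lower. There 202 EPS-high genes (25.7%) were higher and 112 (14.2%) lower, with a median of 0.40 beside 0.01 over all genes. The comparison shares the ES-oeYy1 libraries with the one against EPS-shCtrl. Without ES-oeYy1 replicate 2 it called 3065 genes in place of 5255, without ES-oeYy1 replicate 1 it called 3378, and without ES-oeCtrl replicate 1 it called 3290.

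ES-high genes mirrored this: 527 of 1124 (46.9%) were higher in ES-oeYy1 than in EPS-shCtrl and 68 (6.05%) lower, with a median of 0.98. In ES-oeCtrl the numbers were 558 and 70, with a median of 0.98 as well. Against ES-oeCtrl, 207 ES-high genes were higher in ES-oeYy1 and 274 lower, with a median of -0.01. Of the 21 tested members of the fibroblast list 13 are ES-high, and their high level in untransduced ES cells moved with the feeder markers given above; the part of feeders in the ES-high class was not tested. Leaving out EPS replicate 3 changed the ES-high genes called lower from 68 to 116.

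**Figure D1:**
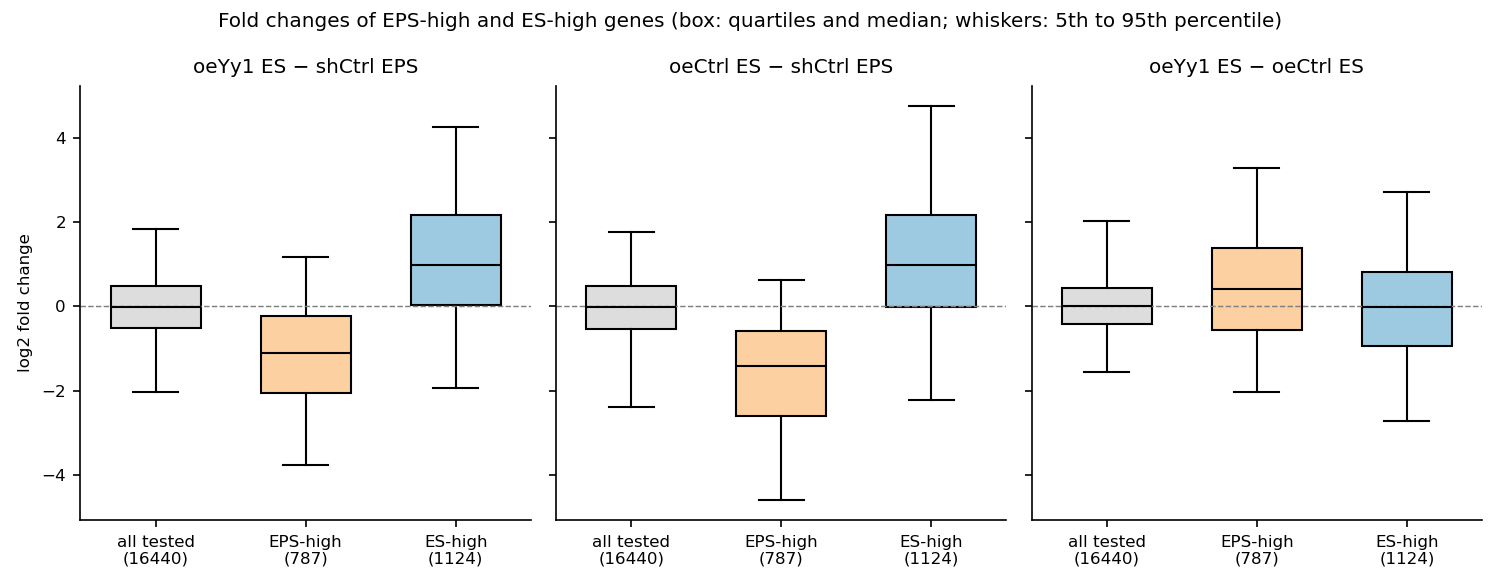
Log2 fold changes (vertical axis) of all genes tested, of EPS-high and of ES-high genes in 3 comparisons, as boxes of quartiles and median with whiskers from the 5th to the 95th percentile. The EPS-high median is -1.10 for ES-oeYy1 and -1.41 for ES-oeCtrl against EPS-shCtrl, and the ES-high median is 0.98 in both.

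On a line drawn from the mean untransduced ES library (0) to the mean untransduced EPS library (1) through the EPS-high and ES-high genes, the ES-oeYy1 libraries stood at 0.378 and 0.404. The ES-oeCtrl libraries stood at 0.257 and 0.255, and the EPS-shCtrl libraries at 0.886 and 1.00. ES-oeYy1 thus lay between the 2 control groups without overlap, nearer to ES-oeCtrl. The value differed by class. On EPS-high genes alone ES-oeYy1 stood at 0.174 in both libraries, ES-oeCtrl at -0.0785 and -0.116 and EPS-shCtrl at 0.799 and 0.8104. On ES-high genes alone, which include feeder genes, ES-oeYy1 stood at 0.483 and 0.522, ES-oeCtrl at 0.4300 and 0.446 and EPS-shCtrl at 0.931 and 1.10. Over both classes the EPS-shCtrl libraries differed from each other by nearly as much as ES-oeYy1 differed from ES-oeCtrl.

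**Figure D2:**
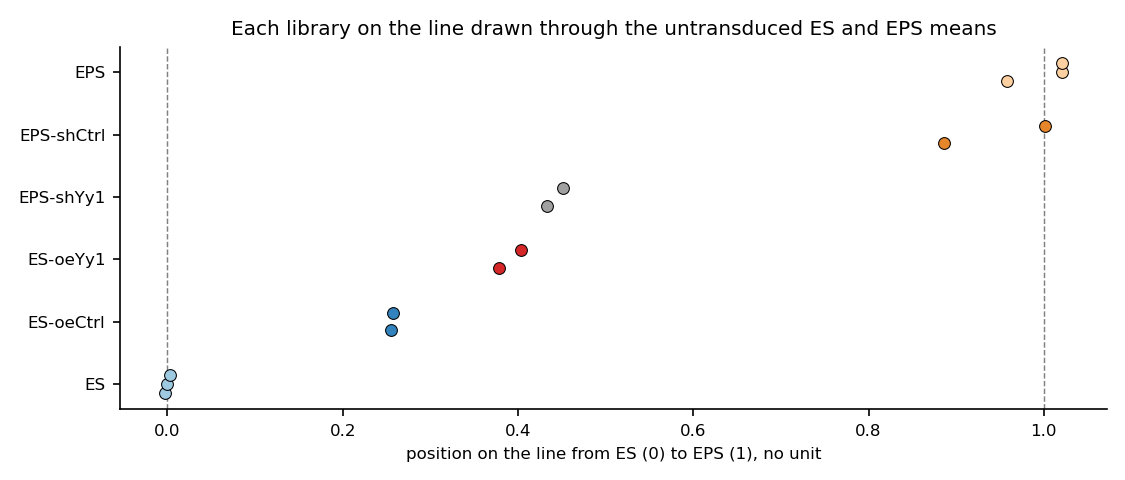
Position of each of 14 undifferentiated libraries (points) on the line from untransduced ES (0) to untransduced EPS (1), by group on the vertical axis. ES-oeYy1 lies at 0.378 and 0.404, between ES-oeCtrl (0.257 and 0.255) and EPS-shCtrl (0.886 and 1.00).

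The genes of de novo DNA methylation differed among themselves. DNMT3A and DNMT3B are the enzymes that place new methyl groups on cytosines, and DNMT3L is their catalytically inactive partner that stimulates them. All 3 genes are EPS-high. Dnmt3l exceeded the EPS control, Dnmt3b lay moderately below it, and Dnmt3a far below.

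The regions before the 3 starts are shown because these partners in methylation differed so much in level, and that of Aire because the 5′ ends of Aire and Dnmt3l overlap. Each run is the 250 bases before the first of the gene's start windows in the RefSeq table (GRCm38.p6), read 5′ to 3′ on the gene's strand, with CG dinucleotides, the sites of methylation, in capitals. Dnmt3l and Dnmt3a each have 3 such windows. That printed for Dnmt3a lies inside the annotated gene, which spans 3801559 to 3914443 on chromosome 12, and so is not the region before its outermost start. That printed for Dnmt3l lies inside the span of Aire.
Dnmt3l, chr10:78042037-78042286, plus strand: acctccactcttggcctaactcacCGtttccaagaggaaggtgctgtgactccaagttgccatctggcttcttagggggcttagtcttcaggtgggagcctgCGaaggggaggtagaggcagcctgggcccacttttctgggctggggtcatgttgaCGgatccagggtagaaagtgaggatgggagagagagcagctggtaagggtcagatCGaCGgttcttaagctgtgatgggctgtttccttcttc
Aire, chr10:78043611-78043860, minus strand: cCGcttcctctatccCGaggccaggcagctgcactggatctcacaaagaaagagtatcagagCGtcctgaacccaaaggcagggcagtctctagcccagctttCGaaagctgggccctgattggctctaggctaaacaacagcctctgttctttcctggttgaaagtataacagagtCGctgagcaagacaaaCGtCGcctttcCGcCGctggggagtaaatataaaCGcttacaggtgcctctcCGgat
Dnmt3b, chr2:153649199-153649448, plus strand: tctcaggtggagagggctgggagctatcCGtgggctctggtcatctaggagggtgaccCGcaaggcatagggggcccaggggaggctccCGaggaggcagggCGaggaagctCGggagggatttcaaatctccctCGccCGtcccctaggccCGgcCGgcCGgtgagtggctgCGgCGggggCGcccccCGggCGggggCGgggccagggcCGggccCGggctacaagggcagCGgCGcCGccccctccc
Dnmt3a, chr12:3806730-3806979, plus strand: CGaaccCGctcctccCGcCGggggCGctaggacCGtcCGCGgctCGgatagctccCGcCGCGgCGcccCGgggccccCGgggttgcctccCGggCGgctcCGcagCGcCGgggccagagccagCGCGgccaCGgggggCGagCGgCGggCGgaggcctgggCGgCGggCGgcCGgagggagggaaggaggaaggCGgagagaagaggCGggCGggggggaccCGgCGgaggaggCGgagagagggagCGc
The Dnmt3l run holds 5 CG dinucleotides and that of Aire 11, whereas those of Dnmt3b and Dnmt3a hold 21 and 38, beside a median of 6 over 32851 such windows. The motif GCCATNTT, a longer form of the YY1 site searched on both strands, is in none of the 4 runs and in 3.91% of all windows. Its core CCAT, contained in the longer motif, occurs 3 times before Dnmt3l and in none of the other 3 runs, with at least 1 match in 77.4% of all windows. The counts depend on the window: in those not printed, Dnmt3l has 4 and 3 CG with 3 and 5 CCAT matches. Dnmt3a has 40 and 15 CG there, with 0 and 1 CCAT matches. The longer motif was also found before 3.28% of the 274 EPS-high genes called lower that have such a window, 4.27% of 211 not called and 0% of 30 called higher, beside 5.06% of 11279 genes tested. These matches describe letters, not binding.

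Dnmt3l was at 214 and 228 CPM in ES-oeYy1 and 43.4 and 67.6 CPM in EPS-shCtrl. ES-oeCtrl had 2.48 and 2.67 CPM and the untransduced EPS libraries 49.00, 50.99 and 41.8 CPM. ES-oeYy1 was thus the highest of these groups and ES-oeCtrl the lowest, with no overlap. The log2 difference was 2.00 ± 0.26 against EPS-shCtrl (adjusted p = 3.5e-05) and 6.42 ± 0.35 against ES-oeCtrl (2.0e-08).

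Dnmt3b was at 115 and 118 CPM in ES-oeYy1, 168 and 312 CPM in EPS-shCtrl and 37.9 and 39.4 CPM in ES-oeCtrl. It was called lower than in EPS-shCtrl (-1.05 ± 0.26, adjusted p = 0.0052), but not without EPS-shCtrl replicate 2, the higher of the pair (adjusted p = 0.091). Against ES-oeCtrl it was higher by 1.59. Untransduced EPS cells averaged 152 CPM, so ES-oeYy1 also lay a little below that level.

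Dnmt3a was at 28.6 and 27.01 CPM in ES-oeYy1, 209 and 232 CPM in EPS-shCtrl and 12.9 and 13.8 CPM in ES-oeCtrl. It was lower by far than in EPS-shCtrl (-2.99 ± 0.17, adjusted p = 1.7e-09) and higher than in ES-oeCtrl (1.06). The EPS-shCtrl level is itself well above that of untransduced EPS cells, which had 33.7, 27.8 and 42.8 CPM. Read against untransduced EPS, the 28.6 and 27.01 CPM of ES-oeYy1 are close, although that pair was not tested.

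Over the whole list of 19 DNA methylation genes tested, 3 were higher and 6 lower in ES-oeYy1 than in EPS-shCtrl, with a median of -0.13. Over all genes 19.6% were higher and 19.7% lower, so higher calls were no more frequent in this list than elsewhere. The other 2 that were higher keep methylation through replication: Uhrf1, which brings DNMT1 to hemimethylated DNA, stood at 834 and 779.7 CPM against 555 and 577 CPM (0.51), and Hells, a chromatin remodeller, at 718 and 758 against 439 and 436 CPM (0.75). Dnmt1 was not called. Among the lower genes, Gadd45a, a stress gene linked to demethylation, had 3.85 and 3.33 CPM against 13.5 and 16.3 CPM (-2.05), and Mbd1, a reader of methylated DNA, 6.73 and 7.98 against 21.6 and 26.9 CPM (-1.72). Tet1, which oxidises methylcytosine, was lower (-0.81), a call lost without EPS-shCtrl replicate 1 (adjusted p = 0.068) or ES-oeYy1 replicate 1 (0.079).

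Aire, known as the thymic regulator of self-antigen expression, rose with Dnmt3l. It had 56.6 and 56.03 CPM in ES-oeYy1, 4.16 and 2.13 CPM in EPS-shCtrl and 2.61 and 2.15 CPM in ES-oeCtrl, a difference of 4.16 ± 0.28 from EPS-shCtrl (adjusted p = 9.6e-09). The 2 genes lie on opposite strands of chromosome 10 and their spans (Aire 78030022 to 78043610, Dnmt3l 78042287 to 78063622) share 1324 bases. The strand setting of the counting is not given in the sources used here, so counts of the pair from the shared stretch cannot be told apart.

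The genes around Dnmt3l, chosen after their values were seen, were examined over 150 kb on each side. The 7 tested genes there include Dnmt3l itself and Aire, whose counts overlap. In ES-oeYy1 3 were higher than in EPS-shCtrl (Dnmt3l, Aire and Icosl), where 19.6% of all genes were. Against ES-oeCtrl 5 were higher (these 3, Lrrc3 and Pfkl), where 14.8% of all genes were. None was lower in either comparison. Icosl, a T cell costimulatory ligand, had 17.6 and 22.8 CPM in ES-oeYy1, 9.15 and 9.10 CPM in EPS-shCtrl and 4.09 and 3.26 CPM in ES-oeCtrl. It was higher by 1.14 than in EPS-shCtrl (adjusted p = 0.0042, but 0.054 without ES-oeYy1 replicate 2) and by 2.45 than in ES-oeCtrl. Lrrc3 had 5.39 and 5.35 CPM in ES-oeYy1 and 5.41 and 5.02 CPM in EPS-shCtrl, and only 0.670 and 0.456 CPM in ES-oeCtrl. Pfkl, a glycolytic phosphofructokinase, was not called against EPS-shCtrl (-0.16, but -0.38 and adjusted p = 0.047 without EPS-shCtrl replicate 1) and was 0.87 higher than in ES-oeCtrl. Pwp2 and Trappc10, further along, were called in neither comparison.

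**Figure D3:**
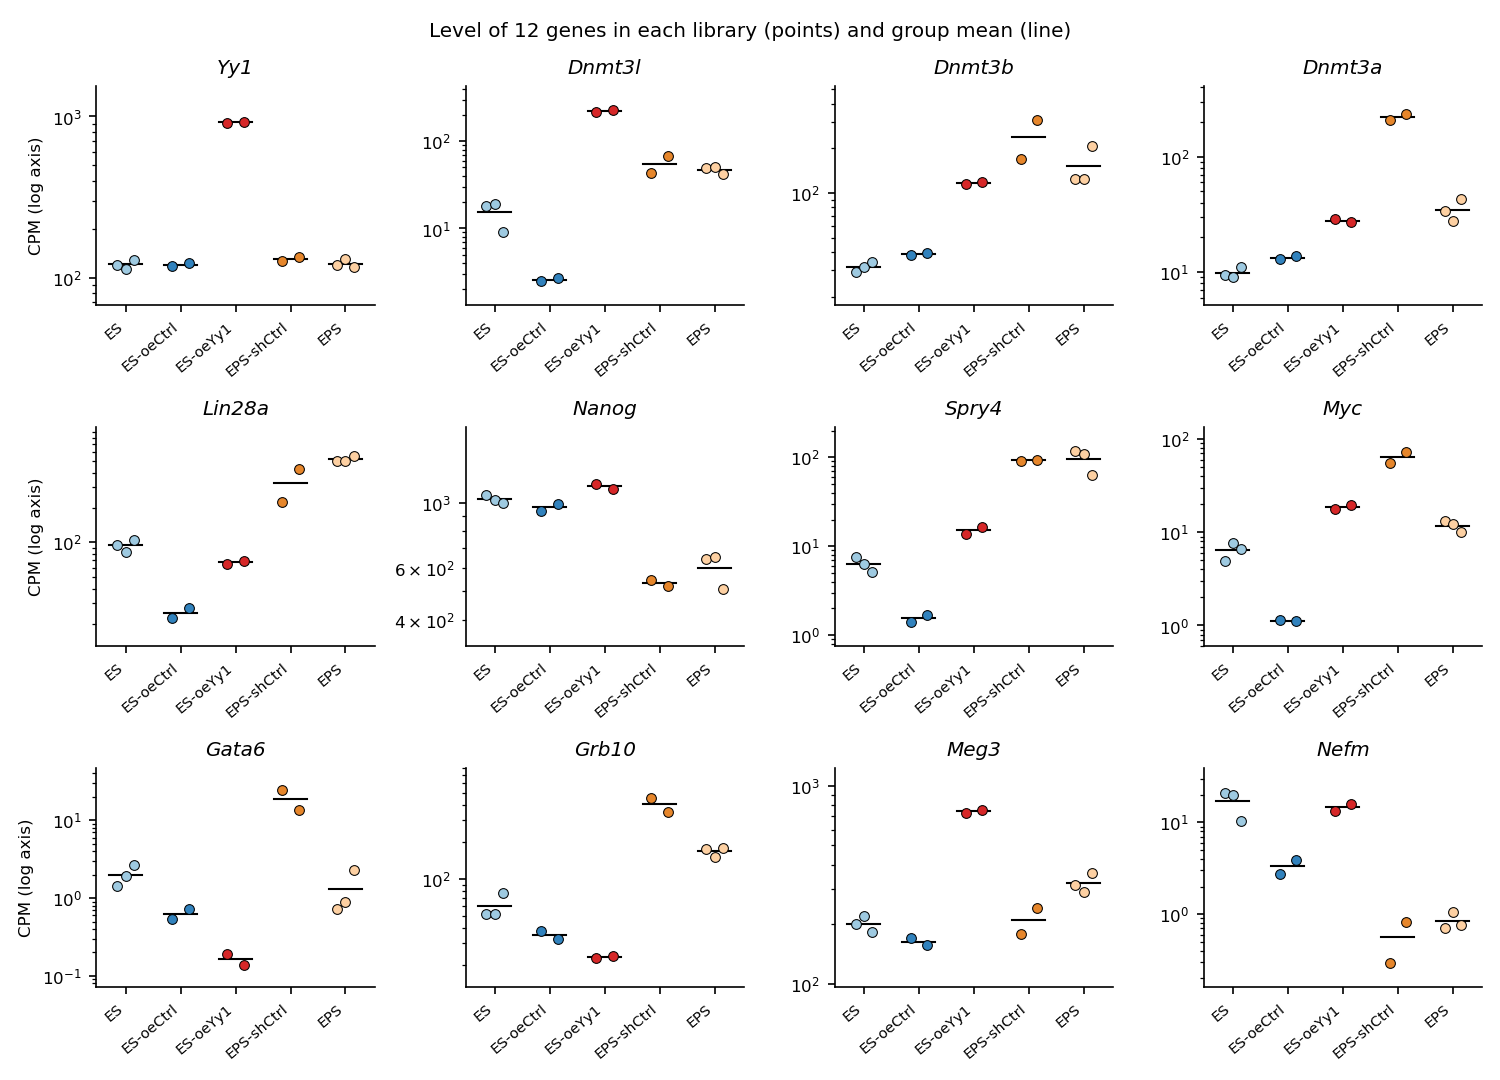
Level of 12 genes in CPM on log axes in each library (points) of 5 groups, with the group mean as a line. Dnmt3l and Meg3 are highest in ES-oeYy1, Spry4, Myc and Lin28a of ES-oeYy1 lie between ES-oeCtrl and EPS-shCtrl, and Gata6 and Grb10 are lowest in ES-oeYy1.

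Among the 8 EPS-high genes called higher with a mean of at least 5 CPM and the largest EPS to ES difference, Dnmt3l and Kif17 kept the call under all 21 alternatives. Kif17, a kinesin motor of neurons, had 9.43 and 11.2 CPM in ES-oeYy1 against 2.32 and 0.827 CPM (2.71, or 3.63 without EPS-shCtrl replicate 1). Hmga2, a chromatin protein repressed by let-7 microRNAs, had 17.3 and 17.8 CPM against 13.8 and 9.93 CPM and 2.14 and 2.41 CPM in ES-oeCtrl. Its call against EPS-shCtrl (0.57, adjusted p = 0.038) went without EPS-shCtrl replicate 2 (0.27) and without ES-oeYy1 replicate 1 or 2 (0.11 and 0.14), whereas the difference from ES-oeCtrl was 2.94 (adjusted p = 2.4e-07).

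Syce1, a synaptonemal complex gene, had 29.6 and 34.9 CPM in ES-oeYy1, 22.9 and 21.5 CPM in EPS-shCtrl and 3.95 and 4.04 CPM in ES-oeCtrl. Trh, the thyrotropin-releasing hormone gene, had 345 and 341 CPM against 90.8 and 238 CPM in EPS-shCtrl, of which replicate 1 is far lower (1.06, or 0.53 without it and 1.92 without replicate 2), and averaged 891 CPM in untransduced EPS cells. Slc6a15, Pwwp2b and Raver2 were higher by 0.75, 0.64 and 0.64. Syce1, Trh, Slc6a15, Pwwp2b and Raver2 each missed the threshold without EPS-shCtrl replicate 1, at adjusted p of 0.093, 0.067, 0.19, 0.077 and 0.072, and without ES-oeYy1 replicate 1, at 0.087, 0.093, 0.14, 0.12 and 0.092. Without ES-oeYy1 replicate 2 Trh, Syce1 and Pwwp2b did so too (0.085, 0.28 and 0.19), and without EPS-shCtrl replicate 2 Syce1 and Pwwp2b (0.15 and 0.17). Against ES-oeCtrl all 5 were higher, by 3.01, 1.98, 2.19, 2.13 and 1.26 in that order.

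A second set of EPS-high genes stood at the EPS control's level within 2-fold. Tspan7, a tetraspanin, had 7.63 and 7.71 CPM in ES-oeYy1 and 6.42 and 6.91 CPM in EPS-shCtrl, with a 95% interval of the log2 difference from -0.36 to 0.77. ES-oeCtrl had 1.01 and 1.11 CPM, 2.85 below ES-oeYy1 (adjusted p = 6.9e-06). Fam184a had 9.17 and 7.08 CPM against 9.09 and 5.73 CPM, with 0.737 and 0.847 CPM in ES-oeCtrl and an interval from -0.50 to 0.77. Ccdc116 and Mtap7d3 had intervals from -0.72 to 0.71 and from -0.37 to 0.93, and both were higher than in ES-oeCtrl, by 2.62 and 3.35. Without EPS-shCtrl replicate 2, Mtap7d3 was called higher than in EPS-shCtrl (0.96, adjusted p = 0.029).

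Some matched genes were not higher than in ES-oeCtrl. Cldn6, a claudin of early epithelia, had 6.86 and 7.57 CPM in ES-oeYy1, 8.38 and 8.57 CPM in EPS-shCtrl and 12.7 and 12.4 CPM in ES-oeCtrl, and these levels all lie below the 47.5 CPM of untransduced EPS cells. Ubash3a had 7.44 and 5.42 CPM, 7.90 and 5.08 CPM and 3.95 and 6.26 CPM in the same order, and Tdrd5, a piRNA pathway gene, 5.07 and 6.80 CPM, 4.99 and 9.28 CPM and 2.82 and 4.11 CPM. For Ubash3a and Tdrd5 the difference between ES-oeYy1 and ES-oeCtrl was not called (adjusted p = 0.54 and 0.088).

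Genes that ERK signalling induces, many of them its own inhibitors, were mostly lower. Of 21 ERK targets and feedback genes tested, 13 were lower in ES-oeYy1 than in EPS-shCtrl and 0 higher, with a median of -1.11. At an unadjusted p under 0.05 edgeR gave 0 higher and DESeq2 0 as well. In ES-oeCtrl 12 were lower than in EPS-shCtrl and 3 higher, with a median of -1.30, from the same EPS-shCtrl libraries. Against ES-oeCtrl 6 members were higher in ES-oeYy1 (Myc, Dusp6, Spry2, Spry4, Spred1 and Etv4) and 2 lower (Ier3 and Dusp1). Of the 21 genes 9 are EPS-high.

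Spry4, an ERK feedback inhibitor, had 13.9 and 16.4 CPM in ES-oeYy1 and 91.6 and 94.6 CPM in EPS-shCtrl, close to the 96.9 CPM of untransduced EPS cells. ES-oeCtrl had 1.41 and 1.69 CPM. The log2 difference of ES-oeYy1 was -2.62 from EPS-shCtrl (adjusted p = 4.2e-07) and 3.28 from ES-oeCtrl (1.4e-06), with the groups in the same order in every library. Dusp6, a phosphatase that removes phosphate from ERK, was arranged likewise, at 17.8 and 18.1 CPM in ES-oeYy1, 68.1 and 53.7 CPM in EPS-shCtrl and 8.98 and 6.91 CPM in ES-oeCtrl (-1.76 and 1.18). Spry2, a relative of Spry4, had 71.5 and 77.8, 126 and 146 and 42.2 and 41.97 CPM in that order of groups.

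Myc, the growth-promoting transcription factor, had 17.7 and 19.6 CPM in ES-oeYy1, 55.1 and 72.7 CPM in EPS-shCtrl and 1.14 and 1.11 CPM in ES-oeCtrl. The log2 difference was -1.78 from EPS-shCtrl (adjusted p = 4.2e-06) and 4.04 from ES-oeCtrl (3.9e-08). Untransduced EPS cells averaged 11.8 CPM, below ES-oeYy1.

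Egr1, an immediate early gene, stood at the ES level in ES-oeYy1. It had 2.31 and 2.71 CPM in ES-oeYy1 and 2.28 and 2.02 CPM in ES-oeCtrl, against 27.4 and 27.4 CPM in EPS-shCtrl and 136 CPM in untransduced EPS cells. Its difference from EPS-shCtrl was -3.45 ± 0.36 (adjusted p = 4.9e-06), and ES-oeYy1 and ES-oeCtrl were not called apart (0.76). Fosb, another immediate early gene, had 0.321 and 0.347 CPM against 10.5 and 3.25 CPM, which differ between the EPS-shCtrl libraries (-4.34, or -3.26 without replicate 1 and -4.95 without replicate 2). Etv4, an ETS factor downstream of FGF, had 50.2 and 47.8 CPM against 299.8 and 302 CPM (-2.62), with only 45.2 CPM in untransduced EPS cells.

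In the list of core pluripotency and Lin28 genes, 8 of 14 tested members were lower and 2, Sox2 and Rif1, higher, with a median of -0.44. Without ES-oeYy1 replicate 2 the lower ones numbered 5 and the higher ones 0, and without ES-oeYy1 replicate 1 or EPS-shCtrl replicate 2 the higher ones also numbered 0. Against ES-oeCtrl 6 members were higher in ES-oeYy1 and 1, Dppa5a, lower. Lin28a, which blocks let-7 maturation, had 65.6 and 69.8 CPM in ES-oeYy1, 223 and 431 CPM in EPS-shCtrl and 22.5 and 27.1 CPM in ES-oeCtrl, with an average of 521 CPM in untransduced EPS cells. The log2 difference was -2.27 ± 0.22 from EPS-shCtrl (adjusted p = 1.5e-06) and 1.45 from ES-oeCtrl (1.7e-04). Its paralogue Lin28b had 12.2 and 13.6, 44.7 and 63.5 and 7.04 and 8.28 CPM in the same groups.

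Dppa2 and Dppa4, chromatin proteins that act as a pair, had 39.2 and 39.7 and 59.5 and 60.1 CPM in ES-oeYy1 and 159.6 and 173 and 128 and 138 CPM in EPS-shCtrl. Neither differed from ES-oeCtrl by the test (adjusted p = 0.077 and 0.29), and Dppa2 averaged only 32.3 CPM in untransduced EPS cells. Utf1, a chromatin factor of pluripotent cells, had 175 and 168 CPM against 449 and 453 CPM (-1.39). Pou5f1 was not called (219 and 225 against 264 and 262 CPM, adjusted p = 0.22). Sox2 had 457 and 448 against 371 and 333 CPM (0.36, adjusted p = 0.017, but 0.11 without EPS-shCtrl replicate 2, 0.097 without ES-oeYy1 replicate 1 and 0.071 without replicate 2).

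Naive pluripotency factors were more often higher. Of 19 tested, 10 were higher in ES-oeYy1 than in EPS-shCtrl and 4 lower, with a median of 0.35, and in ES-oeCtrl 10 were higher and 5 lower. Nanog, the naive factor that stabilises self-renewal, had 1161 and 1115 CPM in ES-oeYy1 and 547 and 520.0 CPM in EPS-shCtrl (1.09 ± 0.13, adjusted p = 4.3e-06). ES-oeCtrl had 939 and 995 CPM and untransduced ES cells averaged 1031 CPM, so the ES groups lay together above the EPS groups. Tcl1, a cofactor of AKT, had 112 and 95.4 CPM against 37.6 and 24.3 CPM (1.74), Fbxo15 355 and 349 against 106 and 139 CPM (1.52), and Tfcp2l1, a STAT3 target, 1063 and 1048 against 607 and 632 CPM (0.77). None of these 4 was called between ES-oeYy1 and ES-oeCtrl (adjusted p = 0.16, 0.74, 0.12 and 0.55).

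The lower naive genes were Klf4, Klf5, Nr0b1 and Gbx2. Klf4, one of the reprogramming factors, had 407 and 379 CPM against 599 and 550.0 CPM (-0.55), and Nr0b1, an orphan nuclear receptor, 77.4 and 80.1 against 188 and 195 CPM (-1.28). Klf5 was lower by the test (-0.50) but not without EPS-shCtrl replicate 1 (adjusted p = 0.18) or without ES-oeYy1 replicate 1 or 2 (0.066 and 0.086). Gbx2, a homeobox gene downstream of STAT3 and ERK, is EPS-high and had 7.06 and 6.46 CPM against 37.01 and 57.3 CPM (-2.80).

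Formative and primed epiblast genes, which mark the step after the naive state, were lower for 10 of 20 tested members and higher for 2, with a median of -0.83. Against ES-oeCtrl 9 were higher in ES-oeYy1 and 3 lower. The members called above EPS-shCtrl were Nodal and Otx2, which drives exit from the naive state. Otx2 had 11.6 and 11.2 CPM in ES-oeYy1 and 0.891 and 0.650 CPM in EPS-shCtrl (3.88 ± 0.32, adjusted p = 1.2e-07). ES-oeCtrl was higher still, at 30.8 and 25.7 CPM, and Otx2 was lower in ES-oeYy1 than there (-1.30).

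Several ES-high genes with a large EPS to ES difference were as high in ES-oeYy1 as in ES-oeCtrl. Arl14epl had 55.6 and 52.1 CPM in ES-oeYy1, 63.00 and 61.98 CPM in ES-oeCtrl and 8.97 and 4.14 CPM in EPS-shCtrl (3.04, or 3.70 without EPS-shCtrl replicate 1). Fkbp6, a piRNA pathway co-chaperone, had 28.8 and 32.1, 34.3 and 26.5 and 2.79 and 2.90 CPM in these groups (3.42). Calcoco2, an autophagy receptor, had 64.4 and 69.7, 73.7 and 82.6 and 11.5 and 5.08 CPM (3.02, or 3.72 without EPS-shCtrl replicate 1). None of the 3 was called between ES-oeYy1 and ES-oeCtrl. Mitf, the melanocyte regulator, had 99.8 and 94.97 CPM against 7.19 and 5.20 CPM (3.97) and averaged 75.6 CPM in untransduced ES cells.

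Nefm, a neurofilament subunit, had 13.4 and 15.8 CPM in ES-oeYy1, 2.75 and 3.91 CPM in ES-oeCtrl and 0.297 and 0.827 CPM in EPS-shCtrl, a difference of 4.68 from EPS-shCtrl (5.59 without EPS-shCtrl replicate 2) and 2.13 from ES-oeCtrl. Skida1 followed the same order with 15.5 and 17.6, 8.11 and 7.23 and 7.01 and 5.61 CPM. Crxos, a homeobox gene, was lower in ES-oeYy1 (11.8 and 8.82 CPM) than in ES-oeCtrl (37.00 and 42.6 CPM) and still above EPS-shCtrl (2.91 and 1.12 CPM).

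A smaller set of ES-high genes was lower in ES-oeYy1 than in EPS-shCtrl. Zfp264 had 3.59 and 2.36 CPM in ES-oeYy1, 10.9 and 8.39 CPM in EPS-shCtrl and 21.5 and 21.1 CPM in ES-oeCtrl (-1.69 and -2.83). Aurkc, the Aurora kinase of meiosis, had 0.257 and 0.486, 13.6 and 8.15 and 12.2 and 10.4 CPM in that order (-4.86, adjusted p = 3.6e-07, and -4.92). Folr1, a folate receptor, and Slc15a1, a peptide transporter, had log2 differences of -1.93 and -1.36 from EPS-shCtrl. In untransduced EPS cells Zfp264 and Aurkc averaged 0.189 and 0.273 CPM, so the EPS-shCtrl libraries themselves were above the untransduced EPS level for these 2 genes.

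Several of the largest falls were genes far higher in EPS-shCtrl than in untransduced EPS cells. Stra8, the gatekeeper of meiosis induced by retinoic acid, had 0.385 and 0.208 CPM in ES-oeYy1 and 85.6 and 78.1 CPM in EPS-shCtrl (-8.06 ± 0.37, adjusted p = 2.9e-10), but untransduced EPS cells averaged 0.351 CPM. Halr1, a non-coding RNA of the Hoxa region, had 0.257 and 0.555 against 52.5 and 50.2 CPM, with 0.309 CPM in untransduced EPS cells (-6.97, or -7.60 without ES-oeYy1 replicate 2). Cdx1, a caudal homeobox gene, had 2.63 and 2.08 against 91.7 and 158 CPM, with 1.31 CPM, and Robo4, Myo1f and Cntfr averaged 0.0590, 0.286 and 1.32 CPM in untransduced EPS cells. Of the 10 largest falls only Porcn, needed to secrete Wnt proteins, and Tcf15, a mesoderm and epiblast factor, are EPS-high. Porcn had 2.44 and 3.26 CPM in ES-oeYy1, 102 and 131 CPM in EPS-shCtrl and an average of 9.69 CPM in untransduced EPS cells.

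Among EPS-high genes with strong differences, Myrf, a membrane-bound transcription factor of myelinating cells, had 2.63 and 1.46 CPM against 70.6 and 69.1 CPM (-5.08). Elavl3, a neuronal RNA-binding protein, had 0.898 and 1.46 against 14.4 and 18.6 CPM (-3.81), and Spn, a sialomucin of leukocytes, 1.60 and 2.01 against 14.5 and 12.5 CPM (-2.90). Soga3 had 2.63 and 2.64 CPM against 29.5 and 19.1 CPM, and 0.536 and 0.717 CPM in ES-oeCtrl, a log2 difference of 2.06 from ES-oeCtrl and -3.20 from EPS-shCtrl. Crmp1, a neuronal cytoskeleton regulator, rested partly on 1 library: 23.9 and 19.9 against 52.5 and 142 CPM (-2.15, or -1.26 without EPS-shCtrl replicate 2). Pdk1, a kinase that restrains pyruvate dehydrogenase, had 62.02 and 57.9 against 228 and 367 CPM (-2.31).

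Wnt targets were lower for 6 of 14 tested and higher for 1, with a median of -0.87, but the lower calls numbered 2, 1 and 2 without EPS-shCtrl replicate 2 and without ES-oeYy1 replicate 1 or 2. Lef1, a Wnt effector, had 0.962 and 0.486 CPM against 3.45 and 48.9 CPM in EPS-shCtrl. Its difference of -5.15 became -2.22 without EPS-shCtrl replicate 2 and -6.05 without replicate 1, and the threshold was missed without ES-oeYy1 replicate 1 or 2 (adjusted p = 0.056 and 0.070). Axin2, a Wnt feedback gene, had 26.2 and 29.3 against 36.8 and 56.8 CPM (-0.76, adjusted p = 0.0084, but 0.17 without EPS-shCtrl replicate 2 and 0.078 without ES-oeYy1 replicate 1).

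Genes of primitive and extraembryonic endoderm, the yolk sac lineage, were lower for 14 of 24 tested and higher for 4, with a median of -1.01; without either ES-oeYy1 library 9 were lower. In ES-oeCtrl 14 were lower and 4 higher than in EPS-shCtrl as well, with a median of -1.27. Between ES-oeYy1 and ES-oeCtrl 20 of the 24 were not called. The transcription factors were low: Gata6 had 0.192 and 0.139 CPM in ES-oeYy1, at or under the limit of 3 counts, and 24.2 and 13.4 CPM in EPS-shCtrl (adjusted p = 3.5e-07). Gata4 had 5.20 and 5.48 against 13.7 and 14.2 CPM (-1.39), and Pdgfra, the receptor that marks this lineage, 0.898 and 0.833 against 10.1 and 9.34 CPM (-3.48). Sox17 (-1.50) missed the threshold when EPS-shCtrl replicate 1 was left out (adjusted p = 0.060), and likewise ES-oeYy1 replicate 1 or 2 (0.057 and 0.13). Cubn, the endocytic receptor cubilin, had 0.706 and 0.347 against 6.18 and 10.9 CPM (-3.99, or -4.59 without ES-oeYy1 replicate 1). The higher members were the basement membrane genes Lama1, Nid1, Nid2 and Sparc, whereas the collagens Col4a1 and Col4a2 and the laminin Lamb1 were lower (-1.71, -2.57 and -1.28). The nidogen gene Nid2 had 600.0 and 588 against 297 and 295 CPM (1.01) and Sparc 522 and 505 against 235 and 146 CPM (1.43).

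The 6 defining endoderm markers summed to 55.5 to 62.1 CPM in EPS-shCtrl, 12.4 to 13.7 CPM in ES-oeYy1 and 11.2 to 25.5 CPM in untransduced EPS cells. In bulk libraries fewer cells of a type and less RNA per cell cannot be told apart. Gata6 and Gata4 averaged 1.31 and 2.60 CPM in untransduced EPS cells, well below their EPS-shCtrl level, and neither is EPS-high. The part of endoderm-like cells in these differences was not tested.

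Germline genes, many of them silenced by promoter methylation in somatic cells, were lower for 13 of 20 tested and higher for 2, with a median of -1.55. Against ES-oeCtrl 4 were higher and 7 lower. Ddx4, the germ cell helicase, had 6.48 and 6.73 CPM in ES-oeYy1, 39.7 and 33.7 CPM in EPS-shCtrl and 6.84 and 5.61 CPM in ES-oeCtrl (-2.47 ± 0.22, adjusted p = 2.8e-07). Piwil2, a piRNA-binding protein, had 5.20 and 5.07 against 34.6 and 24.8 CPM (-2.53), and Taf7l 0.385 and 0.486 against 8.08 and 6.44 CPM (-4.04). Rnf17 was lower in ES-oeYy1 (30.6 and 33.1 CPM) than in both EPS-shCtrl (130.5 and 115 CPM) and ES-oeCtrl (74.7 and 71.6 CPM). Mael, another piRNA gene, was higher than in ES-oeCtrl (1.73 and 2.29 against 0.402 and 0.521 CPM) and lower than in EPS-shCtrl (16.8 and 10.5 CPM). The higher members were Asz1 and Fkbp6, and without EPS-shCtrl replicate 2 or ES-oeYy1 replicate 1 the higher ones numbered 1. Of the 20 genes 9 are EPS-high.

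Imprinted genes, expressed from 1 parental allele under the control of DNA methylation, went both ways: 8 of 28 tested were higher and 11 lower, with a median of -0.21, and against ES-oeCtrl 10 were higher and 5 lower. The maternally expressed RNAs of the Dlk1-Meg3 region on chromosome 12 were higher together. Meg3 had 729 and 755 CPM in ES-oeYy1, 178 and 243 CPM in EPS-shCtrl and 171 and 156 CPM in ES-oeCtrl (1.82 ± 0.15, adjusted p = 1.3e-07, and 2.18 against ES-oeCtrl). Rian had 1103 and 1179, 291 and 370.2 and 313 and 287 CPM in the same groups (1.79 and 1.93), and Mirg 62.5 and 70.3, 13.1 and 21.2 and 12.6 and 13.4 CPM (1.95 and 2.35).

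Counts at Rtl1, the retrotransposon-like gene of the region, were also higher (8.40 and 9.86 against 2.61 and 2.90 CPM, 1.73), though an antisense transcript overlaps it and the strand of the counts is not known. Dlk1, the paternally expressed growth factor at the other end, was lower, at 0.449 and 0.139 against 4.69 and 5.44 CPM (-4.05, or -5.11 without ES-oeYy1 replicate 1). The untransduced EPS libraries had 314, 292 and 363 CPM of Meg3, so ES-oeYy1 lay above every other undifferentiated group shown here.

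Imprinted growth genes outside that region differed in direction. Grb10, which restrains insulin signalling, had 22.8 and 23.5 CPM in ES-oeYy1, 460.1 and 354 CPM in EPS-shCtrl and 37.8 and 32.4 CPM in ES-oeCtrl (-4.13 ± 0.20, adjusted p = 4.6e-10), with 168 CPM on average in untransduced EPS cells. Phlda2, a placental growth restrictor, had 8.92 and 9.37 against 52.2 and 58.97 CPM (-2.60), and Cdkn1c, a cell cycle inhibitor, 0.257 and 0.486 against 4.04 and 8.51 CPM (-4.07, or -3.43 without EPS-shCtrl replicate 2). All 3 are EPS-high. Plagl1, a zinc finger regulator of imprinted genes, was higher at 178 and 188 against 27.1 and 36.99 CPM (2.51) and is ES-high, and Mest was higher at 262 and 299 against 99.6 and 148 CPM (1.18).

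Genes of the 2-cell-like state were low, and only 5 of the 12 listed were tested. Of 5 tested 3, all Zscan4 copies, were lower and 0 higher (0 at an unadjusted p under 0.05 by edgeR and 0 by DESeq2), at 0.770 and 0.278 CPM of Zscan4c in ES-oeYy1 against 3.33 and 1.83 CPM in EPS-shCtrl. Zscan4c had no counts in either ES-oeCtrl library. Against ES-oeCtrl 3 of the 5 were higher in ES-oeYy1 and 0 lower, and 4 were lower in ES-oeCtrl than in EPS-shCtrl. The list summed to 1.92 to 2.08 CPM in ES-oeYy1, between EPS-shCtrl (6.56 to 8.79 CPM) and ES-oeCtrl (at most 0.0652 CPM). The Zscan4 copies are nearly identical, so counts of single members are uncertain, and the number of lower calls fell to 1 without EPS-shCtrl replicate 1 or ES-oeYy1 replicate 1.

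Over all genes 19.6% were higher and 19.7% lower, and the counts for the LIF-STAT3, Nodal and Notch lists lay near that background. The same holds for the trophoblast, PRC2, cohesin and CTCF, and glycolysis lists below, and for the lower calls of the fibroblast and G2/M lists. Of 13 LIF-STAT3 genes 3 were higher and 4 lower, among them Lifr, the LIF receptor, at 109.9 and 129 against 64.4 and 59.3 CPM (0.95). Of 13 Nodal and activin genes 3 were higher and 3 lower: Nodal itself was higher (74.5 and 71.6 against 43.1 and 26.5 CPM, 1.07), and Inhbb, an activin subunit, was lower (3.59 and 2.64 against 99.3 and 48.3 CPM, -4.56, or -3.95 without EPS-shCtrl replicate 1). Of 14 BMP and Id genes 4 were lower and 1 higher, with Id1, an inhibitor of differentiation factors and an EPS-high gene, at 0.962 and 0.903 against 9.57 and 8.57 CPM (-3.27). Of 15 Notch genes 4 were higher and 4 lower: the receptor Notch3 had 109 and 108 against 47.7 and 43.8 CPM (1.24), and the ligand Jag2 18.9 and 16.7 against 37.1 and 44.6 CPM (-1.20).

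Trophoblast genes were higher for 4 and lower for 4 of 18 tested, and without ES-oeYy1 replicate 1 the numbers were 2 and 1, with 1 lower also without ES-oeYy1 replicate 2. Tfap2a, a trophoblast and surface ectoderm factor, had 18.3 and 16.7 CPM against 2.44 and 2.13 CPM (2.93), while Cdx2 was at 0.257 and 0.278 against 0.416 and 3.13 CPM, a difference that missed the threshold without EPS-shCtrl replicate 2 (adjusted p = 0.70) or without ES-oeYy1 replicate 1 or 2 (0.15 and 0.14). Of 10 mesendoderm genes 2 were higher and 3 lower, but without either ES-oeYy1 library 0 were lower and without EPS-shCtrl replicate 2 the lower ones numbered 1. Of 10 neural genes 4 were higher and 4 lower: Pou3f2, a neural POU factor, had 3.27 and 4.72 CPM in ES-oeYy1, 0.178 and 0.236 CPM in EPS-shCtrl and 0.201 and 0.391 CPM in ES-oeCtrl (4.22 and 3.71). Stmn2, a neuronal microtubule regulator and EPS-high, was lower at 142 and 145 against 286 and 324 CPM (-1.09).

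Of the fibroblast list 1 of 21 tested genes was higher and 4 lower, beside 19.6% and 19.7% of all genes, with a median of 0.62. The lower calls lay near the share over all genes and give no direction against the positive median. DESeq2 called 6 members higher, and the fit of the 4 libraries alone also 6, while the lower ones numbered 2 without EPS-shCtrl replicate 1 or ES-oeYy1 replicate 1. Fstl1, a secreted matrix glycoprotein and the most abundant of the lower ones, had 45.2 and 47.3 against 179.8 and 222 CPM (-2.12). The higher gene, Dcn, rested on 0.898 and 1.53 against 0 and 0.0591 CPM and missed the threshold without EPS-shCtrl replicate 1 (adjusted p = 0.051).

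**Figure D4:**
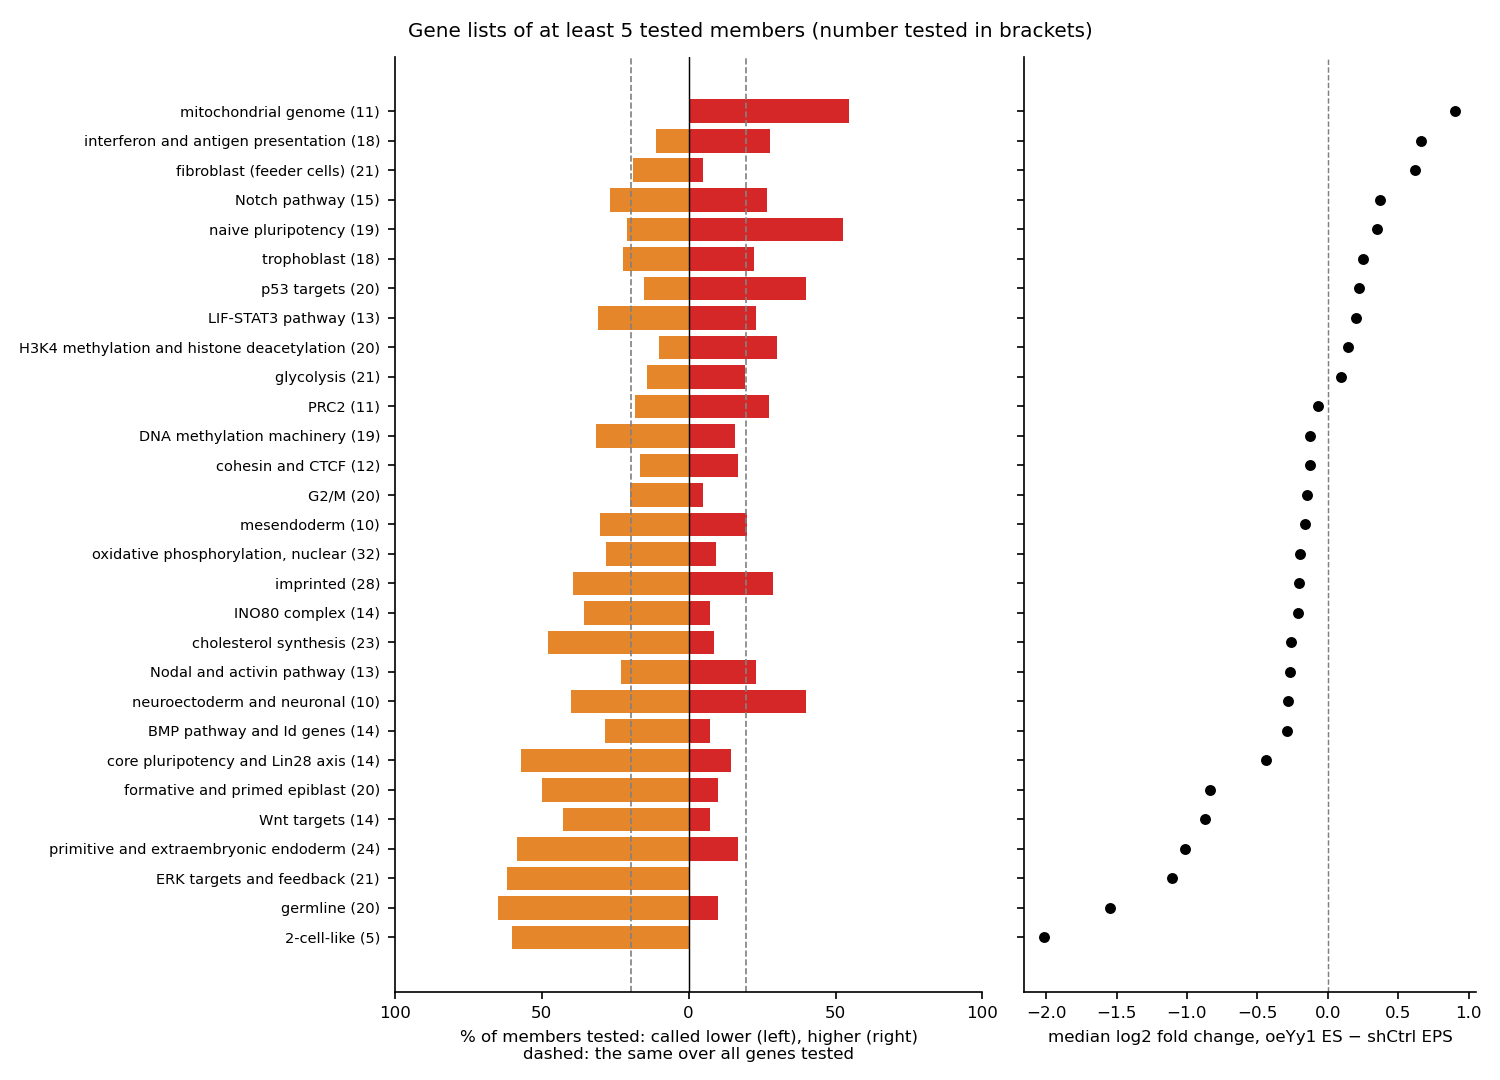
Left, the percentage of tested members called lower or higher in ES-oeYy1 than in EPS-shCtrl for each gene list with at least 5 tested members, with dashed lines at 19.7% and 19.6% for all genes. Right, the median log2 fold change of each list, from -2.01 (2-cell-like) to 0.91 (mitochondrial genome).

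Of 14 genes of INO80, the remodeller that YY1 can join, 5 were lower and 1 higher, with a median of -0.21, and without EPS-shCtrl replicate 2 the lower ones numbered 3. Uchl5 had 49.8 and 52.9 against 78.96 and 89.5 CPM (-0.71). Of 12 cohesin and CTCF genes 2 were higher and 2 lower, and without either ES-oeYy1 library 0 were lower and 1 higher. Of 11 PRC2 genes 3 were higher and 2 lower (0 and 1 without EPS-shCtrl replicate 2 or ES-oeYy1 replicate 1, and 1 and 1 without ES-oeYy1 replicate 2), with Jarid2 at 284 and 285 against 418 and 374 CPM (-0.48). Of 20 genes of H3K4 methylation and histone deacetylation 6 were higher and 2 lower (0 lower without EPS-shCtrl replicate 1 or either ES-oeYy1 library), with Hdac11 at 10.9 and 9.44 against 3.03 and 3.13 CPM (1.72).

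Among metabolic lists, of 23 cholesterol synthesis genes 11 were lower and 2 higher, with a median of -0.26, and the lower ones numbered 6 without EPS-shCtrl replicate 1 or ES-oeYy1 replicate 2. The higher ones numbered 0 without EPS-shCtrl replicate 2 or ES-oeYy1 replicate 1, 1 without ES-oeYy1 replicate 2, and up to 4 without EPS-shCtrl replicate 1 or EPS replicate 3. Against ES-oeCtrl 17 of the 23 were lower in ES-oeYy1, with a median of -0.73, while ES-oeCtrl against EPS-shCtrl gave 9 higher and 4 lower. Ebp, a sterol isomerase, had 13.1 and 10.5 against 48.00 and 44.4 CPM (-1.97), and Srebf2, the master regulator of the pathway, 366 and 353 CPM against 553 and 481 CPM and 719 and 681 CPM in ES-oeCtrl (-0.52 and -0.96). Genes of the mitochondrial genome were higher for 6 of 11 tested and lower for 0 (1 at an unadjusted p under 0.05 by edgeR, and 0 called by DESeq2), with a median of 0.91. In ES-oeCtrl 5 were higher and 1 lower than in EPS-shCtrl, with a median of 0.73. Against ES-oeCtrl 1 was higher in ES-oeYy1 and 0 lower. The gene mt-Nd5, a subunit of complex I, had 3135 and 3139.9 against 1695 and 1656 CPM (0.91), and without EPS-shCtrl replicate 1 there was 1 lower call. Of 32 nuclear genes of oxidative phosphorylation 3 were higher and 9 lower, and the lower ones numbered 3 without EPS-shCtrl replicate 2, 4 without ES-oeYy1 replicate 1 and 3 without replicate 2. Of 21 glycolysis genes 4 were higher (2 without the genes of chromosomes 6 and 8) and 3 lower.

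Of 20 p53 targets 8 were higher and 3 lower, with a median of 0.22. Against ES-oeCtrl 1, Perp, was higher in ES-oeYy1 and 11 were lower, with a median of -0.53, among them Cdkn1a, Mdm2, Bbc3 and Pmaip1. Ccng1, a cyclin induced by p53, had 408 and 438 against 177 and 206 CPM (1.14). Pmaip1, which encodes the apoptosis protein NOXA, was lowest in ES-oeYy1, at 6.41 and 5.62 CPM against 25.1 and 29.9 CPM in EPS-shCtrl and 49.1 and 38.3 CPM in ES-oeCtrl (-2.19 and -2.86). Of 18 interferon and antigen presentation genes 5 were higher and 2 lower, and the higher ones numbered 2 without ES-oeYy1 replicate 1 and 3 without either EPS-shCtrl library. Bst2, which tethers viruses to the cell surface, had 9.69 and 8.47 CPM against 25.3 and 26.7 CPM and 65.01 and 51.9 CPM in ES-oeCtrl (-1.51 and -2.68). Of 20 G2/M genes 4 were lower and 1 higher, and the lower ones numbered 2 without either ES-oeYy1 library.

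Among the 10 largest rises were Platr15, a non-coding RNA of pluripotent cells (17.96 and 22.1 against 0.535 and 0.177 CPM), A2m, a protease inhibitor (66.4 and 67.3 against 3.27 and 2.42 CPM, 4.55), Lrrc15 (44.8 and 41.1 against 1.96 and 2.78 CPM, 4.18) and Grin1, an NMDA receptor subunit (16.5 and 12.6 against 1.13 and 0.473 CPM). All 4 are ES-high. Ly6g6e is neither EPS-high nor ES-high and had 16.5 and 15.1 against 1.25 and 0.650 CPM (4.05). Counts at Mir6236, 19.7 and 19.8 against 0.238 and 0.945 CPM, come from a sequence that resembles ribosomal RNA and are uncertain, and leaving out EPS-shCtrl replicate 1 gave an adjusted p of 0.058.

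Chromosomes 6 and 8 stood apart. Their median difference between ES-oeYy1 and EPS-shCtrl was 0.35 and 0.42, with 38.8% and 43.0% of genes called higher, whereas the medians of the other autosomes lay between -0.16 and 0.05. ES-oeCtrl against EPS-shCtrl showed 0.42 and 0.44, and ES-oeYy1 against ES-oeCtrl -0.01 and -0.06. Leaving out the genes of both chromosomes, 373 of 735 EPS-high genes (50.7%) were lower and 433 of 952 ES-high genes (45.5%) higher. The members called higher without those genes numbered 2 in the trophoblast list, 3 in that of H3K4 methylation and histone deacetylation 2 in glycolysis and 0 in oxidative phosphorylation. Chromosome copy number was not measured here.

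**Figure D5:**
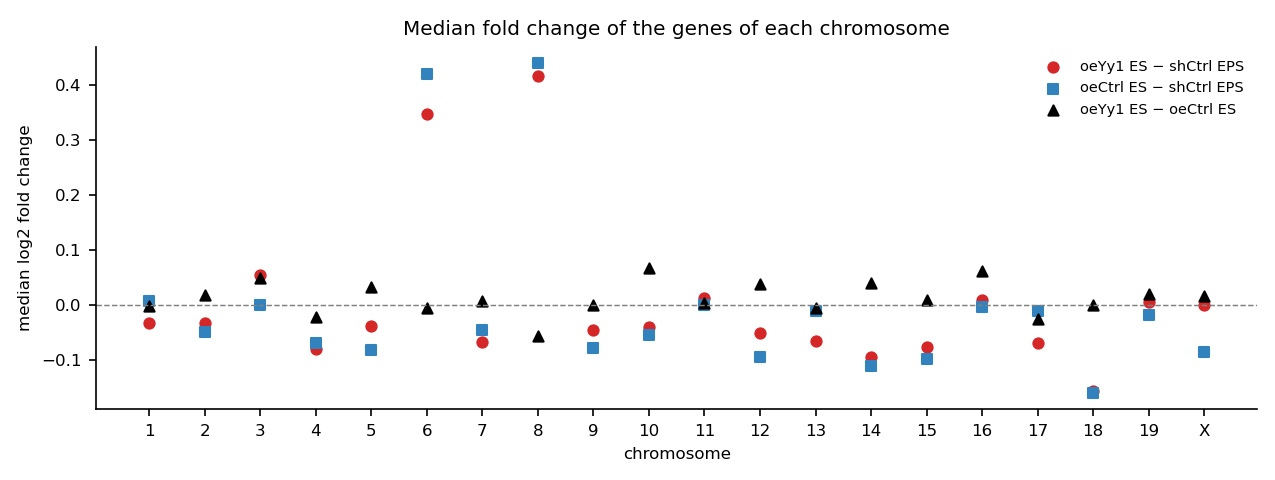
Median log2 fold change (vertical axis) of the tested genes of each chromosome in 3 comparisons (symbols). Chromosomes 6 and 8 stand at 0.35 and 0.42 for ES-oeYy1 and at 0.42 and 0.44 for ES-oeCtrl against EPS-shCtrl, and near 0 between the 2 ES groups.

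Of 4 Y-linked genes 3 were higher and 0 lower (0 at an unadjusted p under 0.05 by edgeR and 0 by DESeq2): Eif2s3y had 12.9 and 12.7 CPM in ES-oeYy1, 0.297 and 0.768 CPM in EPS-shCtrl and 36.9 and 46.7 CPM in ES-oeCtrl. Ddx3y had 10.6 and 10.1, 1.07 and 1.06 and 46.4 and 52.7 CPM in the same groups. Against ES-oeCtrl 3 of the 4 were lower in ES-oeYy1 and 0 higher, with a median of -2.21. The part of the Y-linked and chromosome 6 and 8 differences in other results was not tested beyond the counts without those genes.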

How the data were processed

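The 22 tables deposited by the authors hold raw read counts per gene symbol (47517 symbols, 34744 matched to RefSeq). Per the submitters' processing notes CASAVA, Bowtie2 2.3.2, mm10 and GRCm38.p6 were used, with no role or order given; the counting tool and its strand setting are not given in the sources used here. In the 4 compared libraries summary lines that name no gene (no feature, 6.50% to 8.44% of reads) were left out.

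The 14 undifferentiated libraries in 6 groups, EPS-shYy1 among them, were fitted together with edgeR 4.0.16 (R 4.3.3) by the quasi-likelihood test. The fit used TMM factors, filterByExpr and Benjamini-Hochberg adjustment over 16440 genes. Levels in CPM use the same factors. An SE is the log2 fold change divided by the root of F. Where F was very small, with nearly equal levels, the SE was taken from the fitted model instead. Same-numbered libraries did not deviate together (r from -0.01 to 0.06), so numbers were not used as pairs. DESeq2 1.42.0, other scalings, no filter, the 4 libraries alone, each library left out and the genes of chromosomes X and Y left out were alternatives, and leaving out chromosomes 6 and 8 was chosen after seeing the data. On simulated data (16149 genes) the test called 10.4%, 68.7% and 83.3% of 1.5-, 2- and 4-fold changes, with 5.26% false calls. Only 67, 67 and 66 genes were changed there, whereas 39.3% of genes were called in the real comparison. The simulated shares therefore do not carry over to it.

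The groups, gene lists and members were chosen with earlier results of these data known. Named genes are Yy1, the 10 largest rises and falls with a mean of at least 5 CPM, up to 4 called genes of smallest p per list, 8 per class of EPS-high and ES-high genes, and 12 preset genes. The rises and falls were taken among called genes whose groups did not overlap. There and in the classes, symbols of unnamed clones, predicted genes and pseudogenes were left out, and the classes had the same CPM limit. A further 22 genes, among them Icosl, Pfkl, Mirg, Rtl1, Dlk1, Mest, Phlda2, Cdkn1c, Uhrf1, Hells, Tet1, Utf1, Nr0b1, Klf5, Pdgfra, Sox17, Cubn, Piwil2, Mael, Fosb and Spry2, were chosen after their values were seen, as were other list members named outside this rule.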

Additional observations from a re-analysis of the deposited data

How the results depend on the processing

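Of 185 named calls 143 held under all 21 alternatives, 42 were lost under at least 1, and none reversed. Genes called in ES-oeYy1 against EPS-shCtrl ranged from 4142 to 7034 as each library was left out, and those lower from 1965 to 3509. EPS-high genes called higher ranged from 27 to 56, EPS-high genes within 2-fold from 46 to 89, and ES-high genes called lower from 48 to 116. ES-oeYy1 against ES-oeCtrl ranged from 3065 to 5842 calls, and gave 8149 with only its 4 libraries fitted. With features at least 4-fold apart, 99 EPS-high genes were lower, 5 higher and 10 within 2-fold. Likewise 200 ES-high genes were higher, 20 lower and 10 within 2-fold. These narrower classes hold fewer genes and their sizes are not given here, so the counts cannot be read as shares. Over all genes tested ES-oeYy1 stood at 0.338 on the ES to EPS line, against 0.391 over the features, 0.174 over EPS-high genes alone and 0.483 and 0.522 in its 2 libraries over ES-high genes alone. With the replicate number as a block, 7715 genes were called against EPS-shCtrl (3841 higher, 3874 lower), 431 EPS-high genes were lower and 53 higher, and 590 ES-high genes were higher and 100 lower; no named call was lost, and Dusp14 and Pou5f1 were gained (adjusted p = 0.047 and 0.038). Of 1302 list counts, 144 moved by over 1.5 times, by at most 6 members. With 2 libraries a group and levels of a few CPM, changes under 2-fold may lie below what the test could call. Many calls were under 2-fold all the same: 1464 of 3228 higher and 1662 of 3231 lower calls were at least 2-fold.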
